A study of Drosophila melanogaster with 2 samples.

Results

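The peaks described here are binding sites of the Drosophila melanogaster transcription factor Oc that lie between genes and far from the start of any protein-coding gene. The assay was ChIP-seq: chromatin was sheared by sonication, fragments bound by the protein were pulled down with an antibody, and their DNA was sequenced. Whole embryos between 2 and 14 hours old served as material. They came from a transgenic line in which Oc carries GFP at its C terminus, and the antibody recognised GFP. The single group held 2 libraries, biological replicates 2 and 3 per the labels, with 1 control alignment common to both and no untagged line analysed here. How much sequence around oc was inserted with the tag is not given in the sources used here, and the copy number of that locus was not measured. Whole embryos mix all tissues, so a site used in few cells and one used weakly in many cannot be told apart. Of the 5844 peaks on the authors' list of reproducible peaks (thresholded by irreproducible discovery rate, IDR), 618 had a summit outside every annotated gene, more than 500 bp from any transcription start site and 5000 bp or more from the nearest protein-coding one. That is 10.6% of the list (95% Wilson interval 9.81 to 11.4), and these 618 peaks are called far intergenic below. The rule used position alone and did not use signal, motifs or gene identity. The IDR list it was applied to had been chosen for reproducibility, however, and its lowest signal was 146. Only the 2065 genes with sequence that meets the rule could be nearest to such a peak.

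Oc, encoded by ocelliless (oc, also known as orthodenticle), is a homeodomain protein required for the embryonic head, the ventral midline and later for photoreceptors. Like Bicoid, it belongs to the class of homeodomains with a lysine at the position that reads the bases after TAAT, and it prefers TAATCC over the TAATTA and TAATTG sites of most other homeodomains. Enhancers of developmental genes in Drosophila often lie in the gaps between genes, at a distance from the promoter they act on, and several may serve 1 gene. A peak marks where the tagged protein was recovered and does not show which gene, if any, is regulated from it.

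To show what such a site looks like, the windows of 101 bp around the summits of 12 far intergenic peaks that hold TAATCC are printed below: first the 6 with the highest signal, then the 6 with the highest signal at genes of the developmental lists. Sequence is from RefSeq release 6 (dm6), plus strand, 5′ to 3′, each named by the gene with the nearest protein-coding start site. Capitals mark TAATCC, or GGATTA where the site is on the minus strand.
oc chrX:8657078-8657178: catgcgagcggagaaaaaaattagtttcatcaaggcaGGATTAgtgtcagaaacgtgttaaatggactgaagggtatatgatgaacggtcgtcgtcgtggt
B-H2 chrX:17353057-17353157: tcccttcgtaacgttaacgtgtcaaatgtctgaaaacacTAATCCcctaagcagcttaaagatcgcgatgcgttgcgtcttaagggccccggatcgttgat
CG14020 chr2L:5496618-5496718: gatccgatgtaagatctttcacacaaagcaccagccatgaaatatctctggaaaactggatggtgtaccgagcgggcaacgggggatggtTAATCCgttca
CG4213 chr2L:392694-392794: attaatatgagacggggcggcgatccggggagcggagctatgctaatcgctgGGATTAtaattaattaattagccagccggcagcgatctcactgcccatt
CG11550 chr3R:31687095-31687195: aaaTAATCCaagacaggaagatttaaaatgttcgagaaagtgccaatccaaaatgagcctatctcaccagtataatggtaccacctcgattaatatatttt
CG13891 chr3L:424819-424919: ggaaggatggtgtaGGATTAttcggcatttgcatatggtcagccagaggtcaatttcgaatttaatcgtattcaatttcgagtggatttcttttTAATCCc
SoxN chr2L:8809955-8810055: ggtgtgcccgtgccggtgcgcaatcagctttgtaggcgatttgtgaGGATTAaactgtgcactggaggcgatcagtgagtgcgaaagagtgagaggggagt
mid chr2L:5445635-5445735: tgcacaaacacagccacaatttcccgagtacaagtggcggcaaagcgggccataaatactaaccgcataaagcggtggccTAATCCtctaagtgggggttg
mirr chr3L:12685624-12685724: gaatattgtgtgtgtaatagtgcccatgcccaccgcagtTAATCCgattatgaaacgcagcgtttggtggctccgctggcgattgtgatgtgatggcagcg
fkh chr3R:28572325-28572425: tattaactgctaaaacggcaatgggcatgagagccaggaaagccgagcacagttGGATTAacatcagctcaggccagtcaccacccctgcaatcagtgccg
SoxN chr2L:8832183-8832283: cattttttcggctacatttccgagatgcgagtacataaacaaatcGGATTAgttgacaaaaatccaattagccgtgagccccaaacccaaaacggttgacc
D chr3L:14168856-14168956: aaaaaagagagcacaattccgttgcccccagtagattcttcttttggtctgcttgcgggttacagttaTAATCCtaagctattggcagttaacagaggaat
In these windows the site, or the leftmost site where there were 2, began between 47 bp left and 40 bp right of the summit. Those at SoxN, fkh and CG4213 began within 5 bp of it. The CG13891 window held both orientations, and it was 1 of 2 far intergenic peaks with 2 TAATCC sites, while 76 had 1.

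Far intergenic summits had a TAATCC site within 50 bp more often than summits at promoters or inside genes. Within 50 bp of the summit, 78 of 618 held the motif (12.6%, 10.2 to 15.5), against 3.72% of flanking windows of the same width, whose centres are 500 bp away. The log2 ratio was 1.76. Of all windows whose centre meets the position rule, 3.22% held it. The shares at promoter summits (within 500 bp of a start site) and at summits in genes 5000 bp or more from a start were 5.77% and 8.25%. The far intergenic share exceeded them by 6.85 percentage points (95% Newcombe interval 4.22 to 9.85) and 4.37 points (1.40 to 7.58). Summits in genes nearer to a start had 9.24%, a difference of 3.38 points (0.527 to 6.53). Against intergenic summits nearer to a start the difference was 2.69 points with an interval from -0.893 to 6.26, which includes 0. These intervals cover counting error only, since peaks are not replicates and neighbouring peaks share sequence, and they were not adjusted for the number of comparisons. Over their own flanks, the log2 ratio was 0.626 at promoters and 1.49 in genes far from a start. It was 1.55 in genes nearer to a start and 1.49 at nearer intergenic summits. Flank shares in that order were 3.74%, 2.95%, 3.16% and 3.54%. Differences between these ratios and the 1.76 were not tested.

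**Figure D1:**
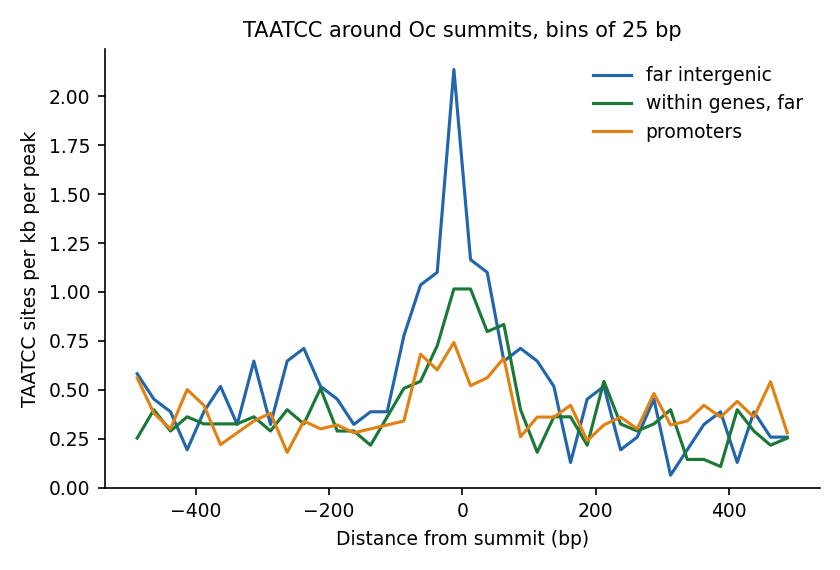
TAATCC sites per kb per peak (y axis) against distance from the Oc summit in bp (x axis, bins of 25 bp) for far intergenic peaks, peaks in genes far from a start site, and promoter peaks. The far intergenic line reaches 2.14 sites per kb in the bin just left of the summit, the promoter line 0.743 in the same bin.

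The same motif content was seen in each library taken alone. Among the 5844 strongest peaks of the replicate 2 list, 622 met the position rule and 11.9% of them held TAATCC. In the replicate 3 list 590 met it and 12.2% held TAATCC. The mean was 12.1% ± 0.217 (SD, n = 2) and the mean log2 ratio over flanks 1.72 ± 0.19 (SD, n = 2), so the ratio was far larger than its spread between replicates. The profile of sites around the summit had its highest bin next to the summit, with 2.14 sites per kb per peak between 25 bp left of it and the summit itself.

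A variant of the site was also more frequent at summits than in flanks, while the sites of other homeodomains were not. TAAGCC, a variant of the core that Oc-type homeodomains also bind, was in 10.4% of summit windows and 4.77% of flanks (log2 ratio 1.12, difference interval 3.04 to 8.44 points). Its share was not detectably higher than at summits in genes far from a start (10.5%, difference -0.161 points, -3.07 to 2.98). The same held for summits in genes nearer to a start (9.57%, 0.786 points, -1.89 to 3.77) and nearer intergenic summits (7.41%, 2.95 points, -0.275 to 6.18). Promoter summits had 6.87% (3.48 points, 1.01 to 6.33). Either site was present in 133 peaks (21.5%, flanks 8.09%), and 9 had both. TAATTG was rarer at summits than in flanks, 7.93% against 11.3% (log2 ratio -0.51, interval -6.06 to -0.487 points), but with windows of 25 bp either side the interval included 0 (-3.70 to 0.559). TAATTA was in 6.47% against 8.90% with an interval that includes 0 (-4.83 to 0.232). GAGAGAG, bound by GAGA factor, was in 1.94% of summit windows and 0.647% of flanks (log2 ratio 1.58), which rests on 12 peaks, and with flanks at 1000 bp the interval of its difference included 0 (-0.125 to 2.45). These were 4 of the 16 motifs searched (25%) whose interval of the difference left out 0, so the other 12, among them the sites of Zelda, GATA factors and Grainyhead, gave intervals that include 0. Motifs were matched by exact letters on both strands, and none is contained in another. Besides those spelled out, the letters were CAGGTAG for Zelda, CACACACA for a CA repeat, TATCGATA for DREF, GGTCACAC for Motif 1 of core promoters and CAGGTG for the Snail-type E-box. The other E-boxes were CAGCTG in one case and CATATG in the other. TTTATTG stood for Caudal-type homeodomains, AGATAAG for GATA factors, AACCGGTT for Grainyhead and AAAAAAA for an A tract.

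**Figure D2:**
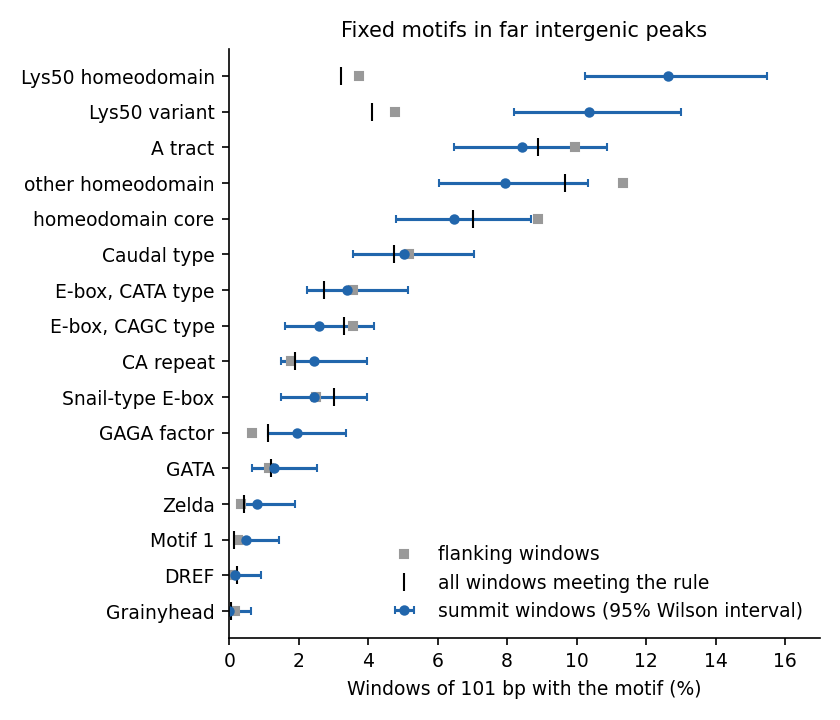
Share of 101 bp windows with each of the 16 motifs (x axis, %) at far intergenic summits (points with 95% Wilson intervals), in their flanking windows (squares) and in all windows meeting the position rule (ticks). The upper rows are TAATCC (Lys50 homeodomain, 12.6%) and TAAGCC (Lys50 variant, 10.4%), where the points stand clear of both squares and ticks.

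Ranking all 6-mers found in at least 20 summit windows by their ratio over flanks, without a chosen list, put TAATCC at place 3 of 1222. CGCGCC (21 windows) and CCTCTC (36 windows) stood above it with fewer windows each. TAATCC was at place 1 in the replicate 2 list and place 2 in the replicate 3 list, and TAAGCC was at place 21 in the IDR set. The base that followed TAATCC was G in 30.0% of 80 sites at summits (21.1 to 40.8) and in 12.2% of 49 sites in flanks (5.73 to 24.2). It was A in 18.8% at summits (11.7 to 28.7) and in 38.8% in flanks (26.4 to 52.8). For each base the separate summit and flank intervals overlap, which does not decide whether the shares differ. No interval of the difference was computed for these bases. All bases on both sides of the site were counted, and these were not chosen beforehand. Summit windows had a mean GC content of 41.9% ± 9.96 (SD over 618 peaks) against 39.9% in flanks.

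The median strength of far intergenic peaks was close to that of the rest of the list, and a smaller share of them than of promoter peaks reached its top. Their median signal, the authors' value per peak on a scale that is not given, was 214 (quartiles 172 and 292, range 146 to 2379), and that of all other IDR peaks 218. The log2 difference of medians was -0.02, with -0.02 in replicate 2 and -0.06 in replicate 3. Of the 618, 34 were among the 500 strongest peaks (5.50%), against 8.92% of other peaks (difference -3.42 points, -5.15 to -1.20) and 12.7% of promoter peaks (difference -7.24 points, -9.42 to -4.73). The share was 5.72% for intergenic peaks nearer to a start (difference -0.222 points, -2.88 to 2.41) and 5.08% for peaks in genes far from a start (difference 0.425 points, -1.70 to 2.81), so no difference from these was detectable. Peaks with TAATCC had a median signal of 235 and those without it 209. That log2 difference of 0.17 was 0.05 in replicate 2 and 0.12 in replicate 3.

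Nearly all were recovered in both libraries. A replicate 2 summit lay within 100 bp of 600 (97.1%) and a replicate 3 summit within 100 bp of 599 (96.9%), a mean of 97.0% ± 0.114 (SD, n = 2). Other IDR peaks gave 96.5% and 97.0%. Both lists held 583, and 33 were in 1 list. The 2 found in neither lay at CG15258 (2L 15352556) and vvl (3L 6812912). The IDR list was made from these replicates, so the level is partly built in. Across the 583, the signals of the replicates were related with a Spearman rho of 0.622 (Pearson r 0.69 after log2), as a description across peaks that share libraries and control.

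**Figure D3:**
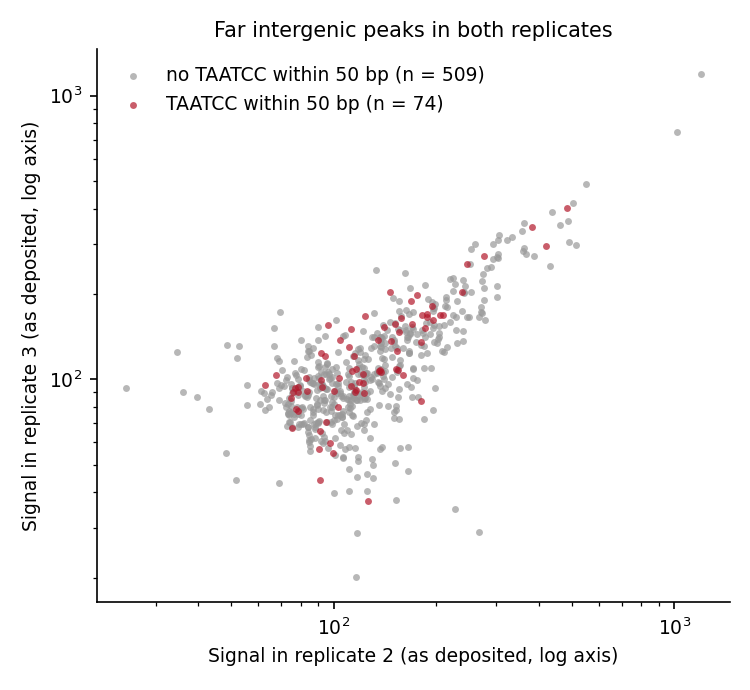
Signal of the 583 far intergenic peaks found in both libraries, replicate 2 (x axis) against replicate 3 (y axis), both as deposited on log axes. Each point is a peak, red where TAATCC lies within 50 bp of the summit (n = 74) and grey elsewhere (n = 509). Red points are spread over most of the range.

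Further down the pooled list the far intergenic share grew and the motif share fell. Far intergenic peaks were 6.80% of the 500 strongest pooled peaks, 12.1% of ranks 5845 to 10000 and 16.1% of ranks 20001 to 30000. TAATCC was in 20.4% of them at ranks 1001 to 2000 (14.0 to 28.7), in 9.33% at ranks 5845 to 10000 and in 5.58% at ranks 20001 to 30000 (4.56 to 6.80), where flanks held 3.62%. In the first and second bin, with 34 and 44 peaks, it was 11.8% and 6.82%. Within the IDR list, peaks in the upper 50% of ranks had 15% and those in the lower 50% had 10.4%, and the interval of that difference, -0.720 to 9.87 points, includes 0.

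**Figure D4:**
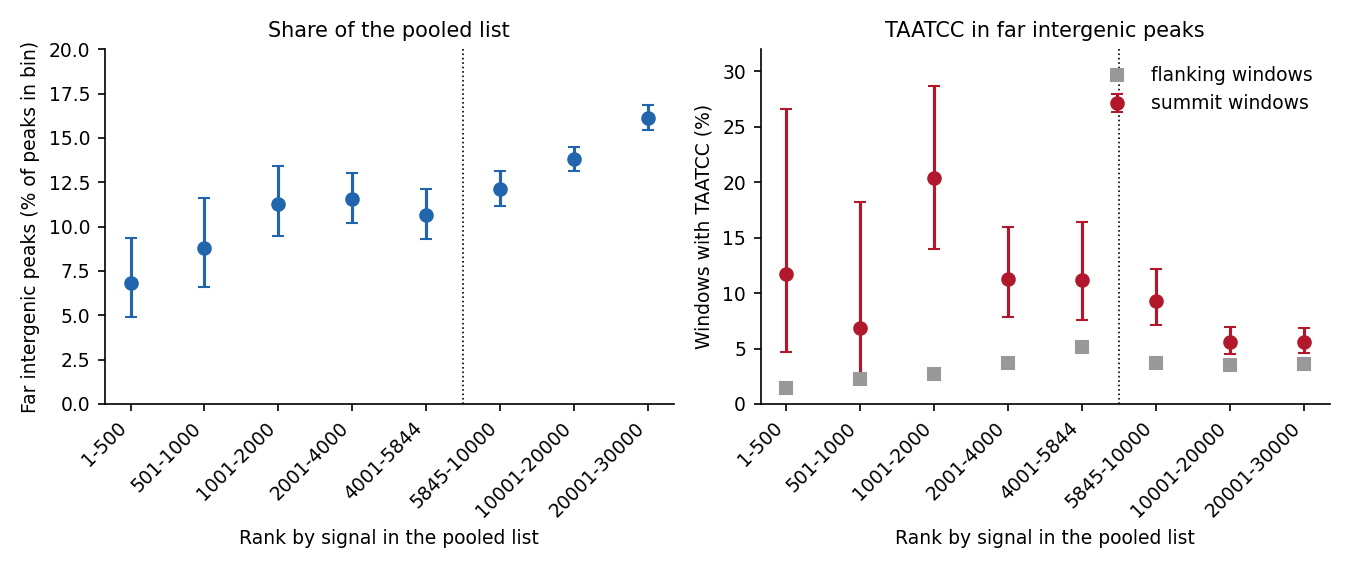
Left, far intergenic peaks as a percentage of all peaks in each bin of signal rank of the pooled list. Right, percentage of far intergenic summit windows (points) and flanking windows (squares) with TAATCC. Bars are 95% Wilson intervals and the dotted line marks the end of the IDR list. The left share runs from 6.80% to 16.1%, and the right share is 5.58% in the last bin.

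The strongest far intergenic peak lay in the gap between Su(z)2, a gene related to the Polycomb group, and CG13323, whose start site was 11924 bp away (2R 13035332). Its signal was 2379 in the IDR list, 1197 in replicate 2 and 1188 in replicate 3, rank 6 in all 3 lists. The next was upstream of oc itself (X 8661399, 10718 bp from the start), with 1789 in the IDR list, 1019 in replicate 2 and 743 in replicate 3. Both summits are in soft-masked (repeat) sequence, and neither window holds TAATCC. After these came a peak at CG6244 (3L 15778039, signal 1056, with 551 and 487 in replicates 2 and 3), in the gap it shares with the axon guidance gene comm. The Iroquois homeobox gene mirr had one of 935 (3L 12711637, with 505 and 418 in the replicates). A second peak upstream of oc (X 8657128) had a signal of 900, with 483 in replicate 2 and 403 in replicate 3, and is the first sequence printed above.

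Several of the other strong peaks were nearest to genes of transcription factors. The Sox gene D (Dichaete) had a peak of signal 856, the zinc finger gene noc one of 852, the BTB zinc finger gene chinmo one of 806, the Bar homeobox gene B-H2 one of 724 and the head gap gene ems one of 711. Hedgehog receptor gene ptc had one of 701. RYBP, whose product associates with Polycomb proteins, had one of 816. The remaining genes of the 20 strongest were CG14147, CG14020, Rubicon, Ote, CG33958, CG11449, CG7560 and Cyp12e1, with signals from 644 to 816. The Cyp12e1 peak lay in the gap between the 3′ ends of Cyp12e1 and hth, 70938 bp from its nearest protein-coding start. Of these 20 peaks 3 had TAATCC, where 12.6% of all 618 did. None of the 20 ranked below 368 in replicate 2 or 377 in replicate 3.

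Around oc the peaks were packed more closely than on average. The gap from oc to Rubicon (X 8650682 to 8677062) held 15 and the gap from Caf1-180 to oc (X 8606305 to 8630158) held 12, together 27 of the 56 on the X chromosome. That is 7.66 per 10 kb of sequence meeting the rule, against 0.262 over all such sequence. Single genes with little such sequence and few peaks reached similar values, for example ptc with 7.80 (3 peaks). Of the 27, 7 were among the 500 strongest IDR peaks and 2 held TAATCC, where 34 (5.50%) and 78 (12.6%) of all 618 did. The median signal of the 27 was 219, near the 214 of the others. Outside these gaps the X had 29, or 8.79 per Mb. The oc gaps were singled out after their values were seen.

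Upstream of oc the peaks ran from the summit at X 8655702, with a signal of 182 (107 in replicate 2, 64.7 in replicate 3), to the summit at X 8671489, nearest to Rubicon, with 212 (114 and 121). Between them lay the pair already described, at 900 and 1789, and among others peaks of 574 (X 8660517), 638 (X 8661608), 439 (X 8662459), 665 (X 8663995) and 494 (X 8667270). The summit at X 8661608 lies in the same deposited interval as that at X 8661399 (X 8661119 to 8661752). Likewise, the summit at X 8657128 shares its interval with one of signal 315 (X 8657329). All counts given here take such summits as separate peaks. In both libraries the summit at X 8661399 was the highest of the gap. On the other side of oc, past its 3′ end, the summit at X 8627359 had 642 (306 and 322) and the one at X 8625008 had 525 (290 and 249). The 7 peaks of that gap nearest to Caf1-180, a chromatin assembly factor subunit gene, had signals from 153 to 370.

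Over all arms the peaks came in groups. They fell in 235 gaps between protein-coding genes, the 2 beside oc included, of which 110 held 1 peak, while 37 gaps with 5 or more held 279 (45.1%). The gap from plh to corto, a gene of a chromatin protein, held 17 over 66.7 kb. That from NijA to CG43245 held 14 over 75.0 kb with no TAATCC within 50 bp of any, where 12.6% of all 618 had it. Another far intergenic summit lay within 5000 bp for 416 of the 618, within 1000 bp for 182 and within 400 bp for 88. Counted as runs of summits no more than 1000 bp apart, there were 519.

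**Figure D5:**
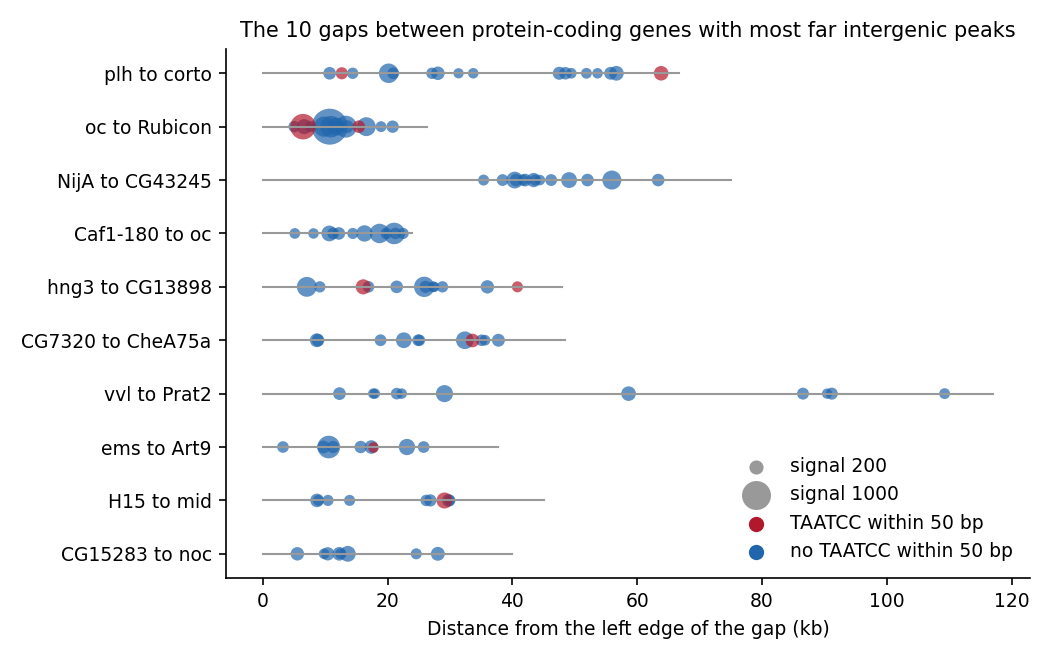
The 10 gaps between protein-coding genes with most far intergenic peaks. The x axis is distance from the left edge of the gap in kb, circle area is the signal of a peak, and red circles have TAATCC within 50 bp of the summit. The 2 gaps beside oc are among the shortest shown, at 26.4 and 23.9 kb, with 15 and 12 peaks.

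Within the sequence open to them, the peaks kept to moderate distances. Such sequence made up 23.6 Mb, 17.7% of the genome. The peaks therefore had 0.598 of the share that length alone would give, and a density of 26.2 per Mb. Peaks in genes far from a start were close to this, with 30.0 per Mb and 0.686 of their share by length. Peaks in genes nearer to a start had 36.2 per Mb (0.827), nearer intergenic peaks 47.0 (1.07) and promoter peaks 110 (2.51). The median distance of far intergenic peaks to a protein-coding start was 11276 bp (quartiles 7716 and 16709, range 5002 to 70938). Density was 35.6 per Mb from 5000 to 10000 bp (249 peaks), 39.5 from 10000 to 20000 bp (258 peaks), 21.9 from 20000 to 50000 bp (107 peaks) and 0.767 beyond 50000 bp (4 peaks). Soft-masked repeats took up 46.8% of the sequence beyond 50000 bp and 22.4% of the nearest bin, and their part in this fall was not tested. The peaks lay upstream of the nearest start in 54.0% (50.1 to 57.9), close to the 53.9% of the sequence that is upstream. A start site of a noncoding gene was nearer than the protein-coding one for 323. Just inside the distance limit were peaks at CG4218 (5002 bp), oc (5021 bp) and rpr (5024 bp), and just outside were CG30114 (4990 bp), CG34382 (4981 bp) and Rubicon (4964 bp, signal 557).

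Counted density varied among chromosome arms. Arm 3L had 225 peaks, 35.6 per Mb (exact Poisson interval 31.1 to 40.5). Arm 2L had 32.6 (27.4 to 38.6), 3R had 26.1 (21.6 to 31.3), X had 16.8 (12.7 to 21.8), and 2R had 15.8 (12.5 to 19.6). Arm 4 had 2 peaks, 13.2 per Mb (1.60 to 47.8). On X, 27 of 56 were in the gaps beside oc, and density outside them was 8.79 per Mb. These intervals take peaks as independent, though peaks came in groups, so they are too narrow. Soft-masked repeats took up from 26.3% (2L) to 34.3% (2R) and 35.3% (4) of such sequence, and their part was not tested. TAATCC was in 8% of the 3L peaks and in 15.3% of the 393 on other arms (difference -7.27 points, -12.1 to -1.90), an arm picked out of 6 after its value was seen.

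By nearest protein-coding start site, the 618 peaks belonged to 286 genes, 13.8% of the 2065 genes that have sequence meeting the rule. Of these, 151 had 1 peak and 28 had 5 or more. Genes with more such sequence had a peak more often, 5.27% of those with up to 5 kb, 21.8% between 5 and 20 kb and 27.9% above 20 kb, so each list of genes below is given beside the number of peaks its length alone would hold. Most peaks belonged to CG43245 (15), oc (14), CheA75a (11), ems, plh and corto (9 each), mirr, CG13898, CG15283 and mid (8 each), Ids, vvl and Caf1-180 (7 each), and noc and chinmo (6 each).

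Lists of patterning genes of the early embryo held more peaks than length gives, though 14 of those peaks were at oc, whose copy number was not measured. These lists were chosen with earlier results of these data known. In the head gap and anterior list, 6 of 17 genes had a peak, with 30 peaks in all where length gives 4.14. Of these oc had 14 and ems 9, D had 3, and the forkhead gene croc had 1 (signal 283). Pair-rule and segment polarity genes had 31 peaks at 12 of 20 genes (6.68 by length). Among them were 3 at ptc, 8 at the T-box gene mid (highest signal 444), 3 at hairy (named hry in the annotation, highest 367) and 3 at the homeobox gene en (354, 305 and 240). Sox genes, which act in the nervous system, had 10 peaks at 3 of 5 genes (1.82 by length), with 3 at D, 3 at Sox21b and 4 at SoxN. Of the 4 at SoxN, 3 held TAATCC. The first of these (2L 8810005) had a signal of 360, with 196 in replicate 2 and 162 in replicate 3. The second (2L 8832233) had 268, with 152 and 109, and the other one (2L 8837690) had 154, with 77.0 and 92.9. The peak at SoxN without the motif had 200. At D the summit with TAATCC (3L 14168906) was the weakest of 3, with 245 against 422 and 856, and the replicates gave 96.4 and 156.

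Mesoderm, muscle and heart genes had 22 peaks at 9 of 16 genes (5.30 by length), led by mid, Doc2 (344), lbl (326) and the LIM homeobox gene tup (305). Appendage and wing genes had 12 at 4 of 18 (8.42 by length), of which 8 were at mirr and the others at ap, al and caup. Neuroblast and neuronal genes had 9 at 6 of 17 (3.78 by length), at tup, zfh1, ap, cas and others. Signalling genes of the Wnt, Hedgehog, Dpp and EGFR pathways had 9 at 5 of 16 (2.72 by length), with 3 at ptc, 2 at wg (259 and 155), 2 at Wnt4 and 1 at dpp (281). The midline and axon guidance list had 18 at 2 of 6 genes (1.58 by length), but 14 were at oc, leaving 4 at comm. Of the Notch list, 1 of 4 genes, the ligand gene Ser, had 2 peaks (0.338 by length).

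Over all 618 peaks 12.6% held TAATCC, and the peaks that held it at other listed genes were as follows. Among the 9 at ems, with signals from 153 to 711, the one at 3R 13922216 (157, with 91.3 and 44.4 in the replicates) held TAATCC. Of the 8 at mirr, which ran from 167 to 935, it was the one at 3L 12685674 (294, with 155 and 147). The 8 at mid ran from 170 to 444, and the one at 2L 5445685 held it (356, with 188 and 166). Of the 4 at fkh, that at 3R 28572375 held it (279, with 153 and 126), and of the 4 at comm that at 3L 15736066 (213, with 122 and 89.6). None of the 7 at vvl and none of the 15 at CG43245 did.

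Retinal determination genes had 6 peaks at 3 of 11 (2.20 by length), 3 at eyg, 2 at hth and 1 at Optix, which held TAATCC. Hox genes and cofactors had 3 at 2 of 8 (2.26 by length), 1 at Dfd and 2 at hth. In the gut list, 1 of 6 genes, the forkhead-domain gene fkh, had all 4 peaks (highest 282, 0.681 by length). The POU-domain gene vvl had all 7 of the tracheal list, where length gives 3.41. No peak was nearest to any of the 8 ribosomal protein genes with such sequence (7.17 by length), among them RpL10 and RpL10Aa. The count by length takes density as even, though it fell to 0.767 per Mb beyond 50000 bp. These 8 genes held 274 kb of such sequence, with a median of 26.5 kb per gene. How far it lay from a start was not examined, so avoidance of these genes cannot be read from the 0. The 7 teneurin and immunoglobulin genes, such as Ten-a and Ten-m, also had none, where length gives 1.34. The neuronal effector genes Rdl and nAChRalpha1 (0.219 by length) and the cuticle genes ovo and ple (0.062 by length) had none either, and at such lengths a count of 0 carries no information. Odorant and gustatory receptor genes had 3 at 2 of 28 (4.75 by length), at Or65a and Or67d. Lists overlap, and 114 of the 618 peaks (18.4%) were nearest to a gene of the 16 lists that were not taken by symbol. These lists hold 6.39% of the genes with sequence meeting the rule and 5.64% of that sequence, and were chosen with earlier results of these data known.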

How the data were processed

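ChIP-seq peak lists from 2 libraries of 1 group were used: a list per replicate, a list from pooled alignments and the IDR-thresholded list, all on dm6 per the labels. The aligner, peak caller, IDR threshold and read depth are not given in the sources used here, so precision is given only as counting intervals over peaks. The deposited signal is the authors' value per peak on an unstated scale. It ranks peaks within a list, and medians are compared only within a list. As deposited, q-values are given as -log10, and 72.0% of IDR peaks share the highest score, so they were not used to rank. The summit offset is another deposited column.

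Members, motifs and gene lists were chosen with earlier results of these data known. Summits were placed with Ensembl 115 (BDGP 6.54) on arms 2L, 2R, 3L, 3R, 4 and X, and the sequence meeting the rule was counted base by base. Transposable element records were not counted as genes, a choice made after both counts (618 and 611) were seen. Each peak was assigned to the gene with the nearest protein-coding start. Every summit counted as a peak, also where summits share a deposited interval. Shares have 95% Wilson intervals and differences of shares 95% Newcombe intervals, unadjusted, though 16 motifs were compared across several classes. No test over samples was run, since there is 1 group of 2 libraries. Named were the genes of the 20 strongest members, the 15 genes with most members, and up to 4 genes per list by signal (the first 2 listed where none had a member). Peaks singled out elsewhere, such as those just inside and outside the distance limit and the 2 absent from both replicates, were not chosen by this rule. Sequences are the 6 strongest TAATCC members and the 6 strongest at list genes, outside arm 2R. Among 320 list entries, 15 matched through a synonym (otd as oc) and 4 matched no gene name. Scripts ran in Python 3.11.15 with scipy 1.17.1, pandas 2.3.3, numpy 2.4.6 and matplotlib 3.10.9, and motif counting and intervals were tested on simulated data.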

Additional observations from a re-analysis of the deposited data

How the results depend on the processing

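The TAATCC ratio kept its direction, with an interval that leaves out 0, under every alternative run, from 1.52 with windows of 100 bp either side to 2.58 in the stronger 50% of IDR peaks. The weaker 50%, which was not one of these runs, gave 1.09 (difference interval 2.02 to 9.62 points). Flanks held TAATCC in 2.49% of windows in the stronger 50% and in 4.89% in the weaker 50%. Leaving out replicate 2 or 3 gave 1.58 and 1.85, which are the values of the replicate 3 and replicate 2 lists described above. They are no separate check, and the peak counts and recovery with a replicate left out likewise repeat values given above. Taking 1 peak per run of summits within 1000 bp (added after seeing the data) gave 1.94, and leaving out soft-masked summits gave 2.12. The number of motifs with an interval off 0 was 4, and 3, 6 and 3 with windows of 25 bp, windows of 100 bp and flanks at 1000 bp. TAATTG was not among the 3 with windows of 25 bp, nor GAGAGAG among the 3 with flanks at 1000 bp. With a distance limit of 10000 bp there were 369 peaks at 167 genes, and in the stronger 50% of IDR peaks 301 at 180 genes. These follow from the smaller sets. Without either replicate there were 590 to 622 peaks and 281 to 286 genes. The log2 signal difference from other peaks was -0.0223. It turned to 0.0111 at 10000 bp and 0.000496 without soft-masked summits, and was -0.0898 in the stronger 50% and -0.0377 to -0.0304 without either replicate. Its sign is therefore not fixed by these data, and the cause was not tested. The spread it was judged by, 0.0287 (SD of the 2 replicate differences), was set after a first run with a narrower spread had been seen. Recovery in the replicates was 87.9% within 50 bp, 99.5% within 200 bp, 97.3% for peaks 10000 bp or more from a start, and 96.9% to 97.1% with either replicate left out. Read depth is unknown, so what it limits cannot be given. No paired analysis was possible because the study has 1 group.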

Other observations

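GC content at far intergenic summits was above that of the flanks in 352 of 618 peaks (57.0%), against 41.6% of promoter peaks (difference 15.4 points, 95% Newcombe interval 10.9 to 19.8) and 47.3% of peaks in genes far from a start (difference 9.63 points, 4.71 to 14.5). For intergenic peaks nearer to a start the share was 54.7% (difference 2.24 points, -3.34 to 7.81). This measure was added after the data were seen. The summit itself was in soft-masked sequence for 93 far intergenic peaks (15%), while 30.1% of the sequence meeting the position rule is soft-masked.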
